A study of Drosophila melanogaster with 12 samples.

Results

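The odorant-binding protein genes of the fruit fly (Drosophila melanogaster) were followed here, as all probe sets of an Affymetrix Drosophila genome array whose single gene symbol begins with Obp and a number. There were 50 such probe sets, for 47 genes, among 11982 genes with a single-symbol probe set and 18769 non-control probe sets. The 12 arrays fell into 4 groups of 3: adult flies with a knockdown of selenophosphate synthetase 2, gene Sps2; wild-type adults; larvae with the same knockdown; and wild-type larvae. Each array is labelled as a biological replicate, and all flies were kept on cornmeal and yeast food. The age and sex of the animals, the part of the body taken, how the knockdown was driven and which line served as wild type are not stated in the labels used here. Nothing in the labels ties an array to its own culture, so p-values measure the spread between these arrays.

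Odorant-binding proteins are small secreted proteins, held in shape by disulfide bridges, that carry hydrophobic molecules in watery fluids. They are best known from the lymph around the nerve endings of the antenna, where some bring odorants and pheromones to receptors. Other members are made in taste organs, in glia, in fat body or in the male reproductive tract, from which several pass to the female in seminal fluid. Selenophosphate synthetase 2 makes the selenium donor used for selenocysteine, and no odorant-binding protein is known as a selenoprotein.

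Values are MAS5 signals, given on the linear scale for single arrays, while changes are differences of log2 signal, knockdown minus wild type, each from 3 arrays against 3, with the standard error (SE) from limma. A change was called at a limma adjusted p under 0.05, taken over all 12827 probe sets that passed a filter on low values. Of the 50 probe sets, 38 passed, 1 for each of 38 genes. The level below which a signal was read as not above background was the 40th percentile of its array, which lay between 34.2 and 41.9 in linear signal. Signals of different probe sets are not on a common scale, so levels are set against each other only within a gene. Flies or larvae were measured as bulk RNA, in which fewer cells of a type and less RNA per cell cannot be told apart.

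Sps2 read 138, 138 and 113 on the adult knockdown arrays, against 902, 878 and 919.6 in wild-type adults, and 188, 138 and 149 on the larval knockdown arrays, against 787, 718 and 830.4 in wild-type larvae. At both stages the knockdown and wild-type readings of the target lay far apart. In adults the knockdown arrays had the lower median log2 signal, 6.37 to 6.48, against 6.69 to 6.77 in wild type. In larvae the medians were 6.03 to 6.16 in the knockdown group, against 5.95 to 6.04 in the wild-type group. Centring each array on its median raises every adult change by 0.28 and lowers every larval one by 0.09.

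The genes were grouped by the stage at which wild-type flies expressed them, that is by whether the mean of the 3 wild-type arrays of a stage reached the 40th percentile. By this rule 12 of the 47 genes were expressed in adults only, 9 in larvae only, 14 at both stages and 12 at neither. The adult-only genes were Obp8a, Obp19b, Obp19c, Obp22a, Obp51a, Obp56f, Obp56g, Obp56i, Obp57a, Obp57b, Obp57c and Obp69a. They include 6 of the 7 genes listed here for seminal fluid proteins, the exception being Obp56e, which was expressed at both stages. The larva-only genes were Obp47a, Obp50d, Obp50e, Obp56b, Obp56h, Obp58c, Obp58d, Obp83g and Obp93a. Closest to the limit were Obp19d, just inside it in larvae with 41.8, 40.5 and 28.95, and Obp83b, just outside it in adults with 21.6, 50.9 and 51.5 in wild type.

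**Figure D1:**
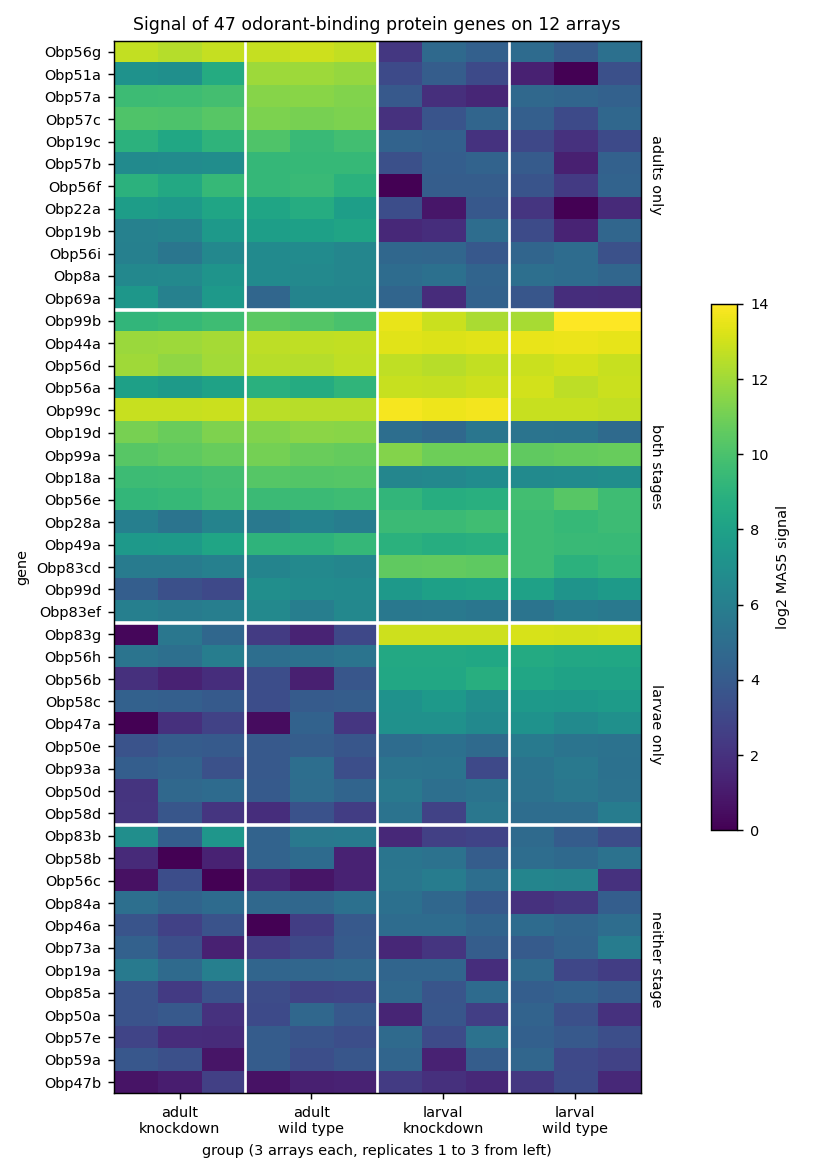
Log2 MAS5 signal (colour) of the 47 genes (rows, 1 probe set each) on the 12 arrays (columns, 3 per group, replicates 1 to 3 from left), with genes sorted into the 4 wild-type stage classes of 12, 14, 9 and 12 genes. Levels can be compared along a row; Obp83g is bright in larvae and dim in adults, and Obp56g the reverse.

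Some members were nearly confined to 1 stage in these readings. Obp56g, a seminal fluid protein of the ejaculatory bulb that acts in mating plug formation, read 7073, 7872 and 6606 in wild-type adults, against 29.7, 15.99 and 35.9 in wild-type larvae. Obp51a, another seminal fluid gene, read 3905, 3961 and 3470.2 in wild-type adults and 2.45, 1.00 and 10.8 in wild-type larvae. In both genes every adult reading stood far above every larval one. Obp83g went the other way, with 5.39, 2.62 and 8.31 in wild-type adults, against 9152, 8874 and 8964 in wild-type larvae. Obp28a, a protein of antennal basiconic sensilla, was expressed at both stages but was lower in wild-type adults, at 49.99, 74.1 and 62.01, than in wild-type larvae, at 773, 659 and 785. Obp19d, known from olfactory and taste organs, had 2587, 2989 and 2944 in wild-type adults and 41.8, 40.5 and 28.95 in wild-type larvae. In that comparison 31 of the 38 tested members were called, beside 81.7% of all tested probe sets. Because these arrays set the classes, nothing is read from that count.

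The same stage difference was read in the knockdown arrays, which the grouping did not use. All 12 adult-only genes were called higher in knockdown adults than in knockdown larvae, beside 50.3% of all tested probe sets called higher. Of the 9 larva-only genes, 7 were called lower in knockdown adults, beside 30.9% of all tested probe sets. The 2 without a call were Obp58d (log2 change -1.85, SE 0.82, adjusted p = 0.0543) and Obp93a (log2 change -0.57, SE 0.65, adjusted p = 0.425). Among the 14 genes of both stages, 3 were called higher and 10 lower in knockdown adults. Genes chosen as above background at 1 stage, and tested only because of that stage, had largely to differ, so nothing is read from these counts against all probe sets. Taking the classes from the knockdown arrays themselves put 9 of the 47 genes in another class. They were Obp19a, Obp19d, Obp50e, Obp56c, Obp56h, Obp58d, Obp83b, Obp93a and Obp99d, of which Obp99d was larva-only by the knockdown arrays, being below that level in knockdown adults.

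In knockdown adults 10 of the 38 tested odorant-binding protein genes fell and 1 rose, relative to wild-type adults. The share that fell, 26.3%, stood beside 15.4% of all tested probe sets, and the share that rose, 2.63%, beside 13.6%. In either direction the share called, 28.9%, stood beside 29.0% of all tested probe sets. The median log2 change of the members was -0.49, against -0.04 over all tested probe sets. These shares include members that were below background in adults. Of the 26 members at or above the background level on all 3 arrays of an adult group, 10 fell and 1 rose. Among all probe sets chosen in that way, 17% fell and 15.3% rose. The genes that fell were 3 of the 12 adult-only genes and 7 of the 14 both-stage genes. None was larva-only or of neither stage. By definition, genes of those classes had a wild-type adult mean below background, from which a fall cannot be measured. Nothing is therefore read from the lack of falls among them. The wild-type arrays that set these classes are also the controls of the knockdown comparison, so the counts by class are descriptions. The 3 knockdown and 3 wild-type adult arrays did not overlap for 15 members that were lower and 1 that was higher, beside 31.4% and 26.8% of all tested probe sets.

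**Figure D2:**
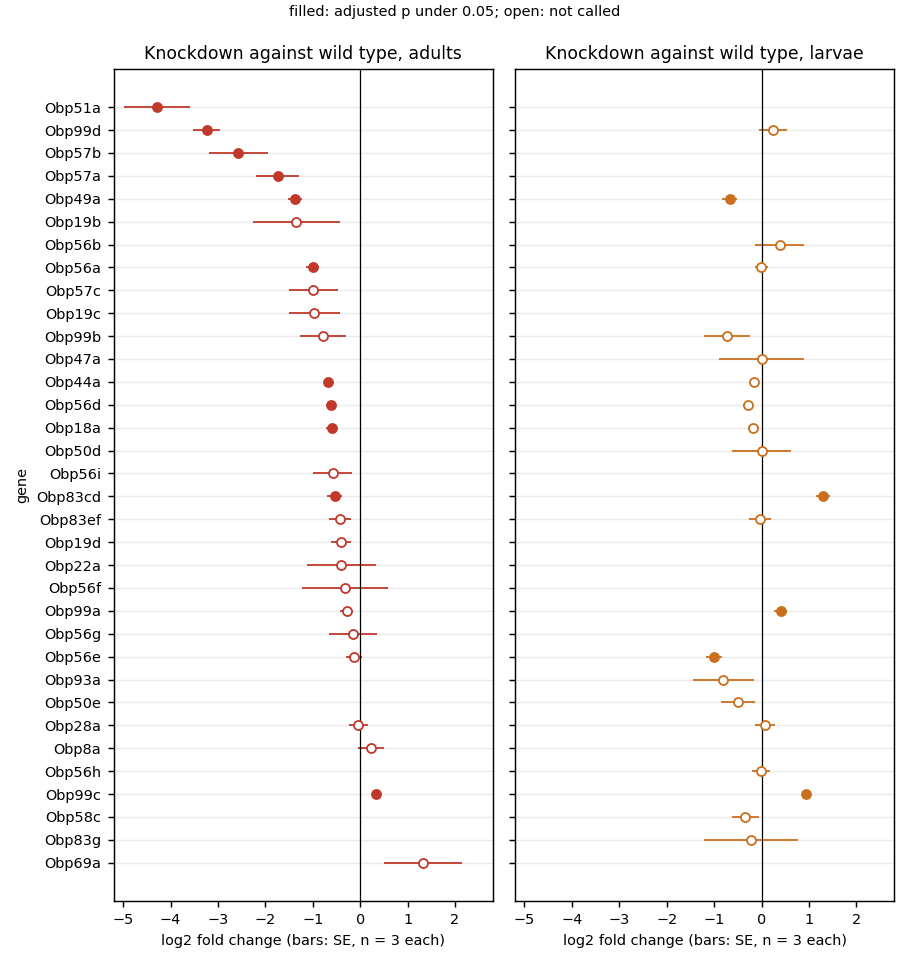
Log2 fold change, knockdown minus wild type, in adults (left) and larvae (right), with SE bars (n = 3 arrays per group), for the 34 genes at or above the 40th percentile on all 3 arrays of at least 1 group, each drawn at the stages where that holds; filled points have an adjusted p under 0.05. In adults 10 filled points lie below 0 and 1, Obp99c, above it, while in larvae the filled points fall on both sides.

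Among the seminal fluid genes, Obp51a showed the largest adult change of the 38 tested members. It read 141, 127 and 398 in knockdown adults, against 3905, 3961 and 3470.2 in wild-type adults. The third knockdown array was the highest of its group and still far below any wild-type array. The fall was 19.6-fold (log2 change -4.29, SE 0.70, adjusted p = 0.000738), and it was -4.82 without adult knockdown replicate 3 and -3.99 without replicate 2. None of the other 6 genes of the seminal list was called in adults. Obp56g read 6823, 5666 and 6930.0 in knockdown adults, against 7073, 7872 and 6606 in wild-type adults, with overlapping groups (log2 change -0.15, SE 0.50, adjusted p = 0.846). Obp22a, with 218, 187 and 304 in knockdown adults, against 305, 411 and 227 in wild type, also overlapped (log2 change -0.40, SE 0.72, adjusted p = 0.716). Obp8a, Obp56e, Obp56f and Obp56i had adult log2 changes of 0.23, -0.13, -0.31 and -0.58, none of them called.

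Markers of the male accessory gland and ejaculatory tract were read beside these. The summed signal of the 22 measured markers was 71166 to 105010.0 in knockdown adults, against 89137 to 116170.0 in wild-type adults, with overlapping ranges. Their median change was -0.30, where 1 of 22, Acp53C14c, fell (log2 change -1.83, SE 0.52, adjusted p = 0.0206) and none rose, and all 22 reached the 40th percentile on all 6 adult arrays. Of all tested probe sets 15.4% fell in adults and 13.6% rose. Acp53C14c read 120.1, 75.03 and 262 in knockdown adults, against 445, 589 and 408 in wild type. Like Obp51a, it was highest on the third of the knockdown arrays, as were 24 of the 26 members at or above the 40th percentile on all 3 arrays of an adult group. No like count over all probe sets is given, so this is not read as a trait of the family. The 9 measured female markers, such as the yolk protein genes, summed to 82256 to 86270.0 in knockdown adults, against 90009 to 94852 in wild-type adults. These ranges did not overlap, and 1 of the 9 fell and none rose. The part of the reproductive tissues in the Obp51a change was not tested beyond these values.

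Obp57a, Obp57b and Obp57c lie side by side in the RefSeq gene order and were all adult-only. Obp57b read 104, 109 and 118 in knockdown adults, against 636, 672 and 657 in wild-type adults, which is 5.95-fold lower (log2 change -2.57, SE 0.63, adjusted p = 0.00924). Obp57a read 766, 811 and 918 in knockdown adults and 2771, 2903 and 2623 in wild-type adults, which is 3.33-fold lower (log2 change -1.74, SE 0.45, adjusted p = 0.0134). Replicates of each group were close together and the groups far apart for both genes. Obp57c had 1136, 1100.2 and 1334 in knockdown adults, against 2403, 2262 and 2388 in wild-type adults, and was not called (log2 change -0.99, SE 0.52, adjusted p = 0.179). Its larval signals were all below the 40th percentile, and their spread enters the shared error of the fit. With the 6 adult arrays alone, the change of Obp57c was called (SE 0.0722, limma adjusted p = 1.18e-05).

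Among the chemosensory members, Obp49a is needed in taste sensilla for bitter compounds to suppress the response to sugar. It read 183, 195 and 297 in knockdown adults, against 554, 533 and 630.1 in wild-type adults, and fell 2.60-fold (log2 change -1.38, SE 0.15, adjusted p = 4.45e-05). Of the other taste genes listed, Obp19b had 71.4, 75.7 and 184 in knockdown adults and 231, 245 and 289 in wild-type adults, without a call (log2 change -1.34, SE 0.91, adjusted p = 0.298). The groups of Obp19b did not overlap, and it was called with the 6 adult arrays alone (limma adjusted p = 0.0072; 48.3% of all probe sets were called in that fit). Obp19c read 505, 326 and 559.8 in knockdown adults, against 1115, 712 and 865 in wild-type adults, and Obp19d 2233, 1752 and 2505 in knockdown adults, against 2587, 2989 and 2944 in wild type. In each, the highest knockdown array lay below the lowest wild-type array. Neither was called over all arrays (adjusted p = 0.209 and 0.158), and both were with the 6 adult arrays alone (0.00475 and 0.0179).

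Obp56d, one of the abundant antennal members, read 4055, 3304 and 4301 in knockdown adults, against 5729, 5627 and 6516 in wild-type adults (log2 change -0.62, SE 0.10, adjusted p = 0.000787). Obp69a, which acts in social responses to a male pheromone, and Obp83b, also known as OS-E and found in antennal trichoid sensilla, were not called. Obp69a had 170.0, 71.8 and 194 in knockdown adults and 24.2, 78.3 and 80.4 in wild-type adults, while Obp83b had 121, 18.4 and 165 in knockdown adults and 21.6, 50.9 and 51.5 in wild type. In both, the second knockdown array was the lowest of its group and the groups overlapped (log2 changes 1.32 and 0.90). Obp28a had 66.2, 41.8 and 76.2 in knockdown adults, against 49.99, 74.1 and 62.01 in wild-type adults, and was not called (log2 change -0.04, SE 0.21, adjusted p = 0.904). The antennal genes Obp19a, Obp59a and Obp84a did not pass the filter.

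Other members that fell in adults were expressed at both stages. Obp44a, a carrier made in glia of the brain, read 3839.9, 3927 and 4379 in knockdown adults, against 6145, 6562 and 6713 in wild-type adults, and fell 1.60-fold (log2 change -0.68, SE 0.06, adjusted p = 4.52e-06). Obp56a had 244, 197 and 267 in knockdown adults and 465, 394 and 568 in wild-type adults, which is 2.01-fold lower (log2 change -1.005, SE 0.14, adjusted p = 0.000312). Obp18a read 761, 816 and 903 in knockdown adults, against 1259, 1219 and 1278 in wild-type adults (log2 change -0.60, SE 0.11, adjusted p = 0.00162). In each of these genes the highest knockdown array lay below the lowest wild-type array. Obp83cd, whose protein joins a pair of odorant-binding domains, read 56.97, 55.8 and 69.6 in knockdown adults and 80.96, 96.8 and 87.2 in wild-type adults (log2 change -0.54, SE 0.15, adjusted p = 0.0185). The call of Obp18a was lost when arrays were centred on their median (adjusted p = 0.0539), and that of Obp83cd with that centring (0.204), with quantile normalization (0.221) and without adult knockdown replicate 1 (0.0607) or 2 (0.0700) or wild-type replicate 2 (0.0685).

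Glia markers were also lower in knockdown adults on the deposited scaling. Of the 4 measured, alrm, Gs2 and moody fell, with log2 changes of -0.65, -0.29 and -0.32, and repo had -0.34 without a call. Of all tested probe sets 15.4% fell. Centring arrays on their medians raises each of these changes by 0.28, nearly the whole size of those of Gs2, moody and repo. The summed signal of the 4 glia markers was 3337 to 3601 in knockdown adults, against 4228 to 4472 in wild-type adults. Of the 5 measured eye markers, which stand for the head, 1 fell and none rose, with sums of 10925 to 12515 in knockdown adults, against 15023 to 16878 in wild type. Their median log2 change was -0.39, to which the same centring adds 0.28. These values lie in the same direction as the falls of the Obp genes, and their part in them was not tested.

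The genes Obp99a, Obp99b, Obp99c and Obp99d, all expressed at both stages in wild type, did not change alike. Obp99d read 18.04, 10.8 and 8.37 in knockdown adults, against 123, 108 and 103 in wild-type adults. All 3 knockdown arrays were below the 40th percentile, so the fall was at least 3.15-fold (adjusted p = 6.68e-06). Obp99c was the only member that rose in adults, with 7252, 7169.9 and 7663 in knockdown adults and 5927, 5769.9 and 5719.5 in wild-type adults (log2 change 0.34, SE 0.05, adjusted p = 0.000341). Obp99b, whose transcript differs by sex in adult fat tissue of the head, read 601, 666 and 809 in knockdown adults, against 1395, 1199.6 and 1003 in wild-type adults. Its groups did not overlap, but it was not called (log2 change -0.79, SE 0.49, adjusted p = 0.25) except with the 6 adult arrays alone (adjusted p = 0.00128), with array weights (0.0409) or without larval wild-type replicate 1 (0.0364). Obp99a had 1333, 1487 and 1742 in knockdown adults and 2119, 1758 and 1682 in wild-type adults (log2 change -0.29, SE 0.14, adjusted p = 0.137).

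**Figure D3:**
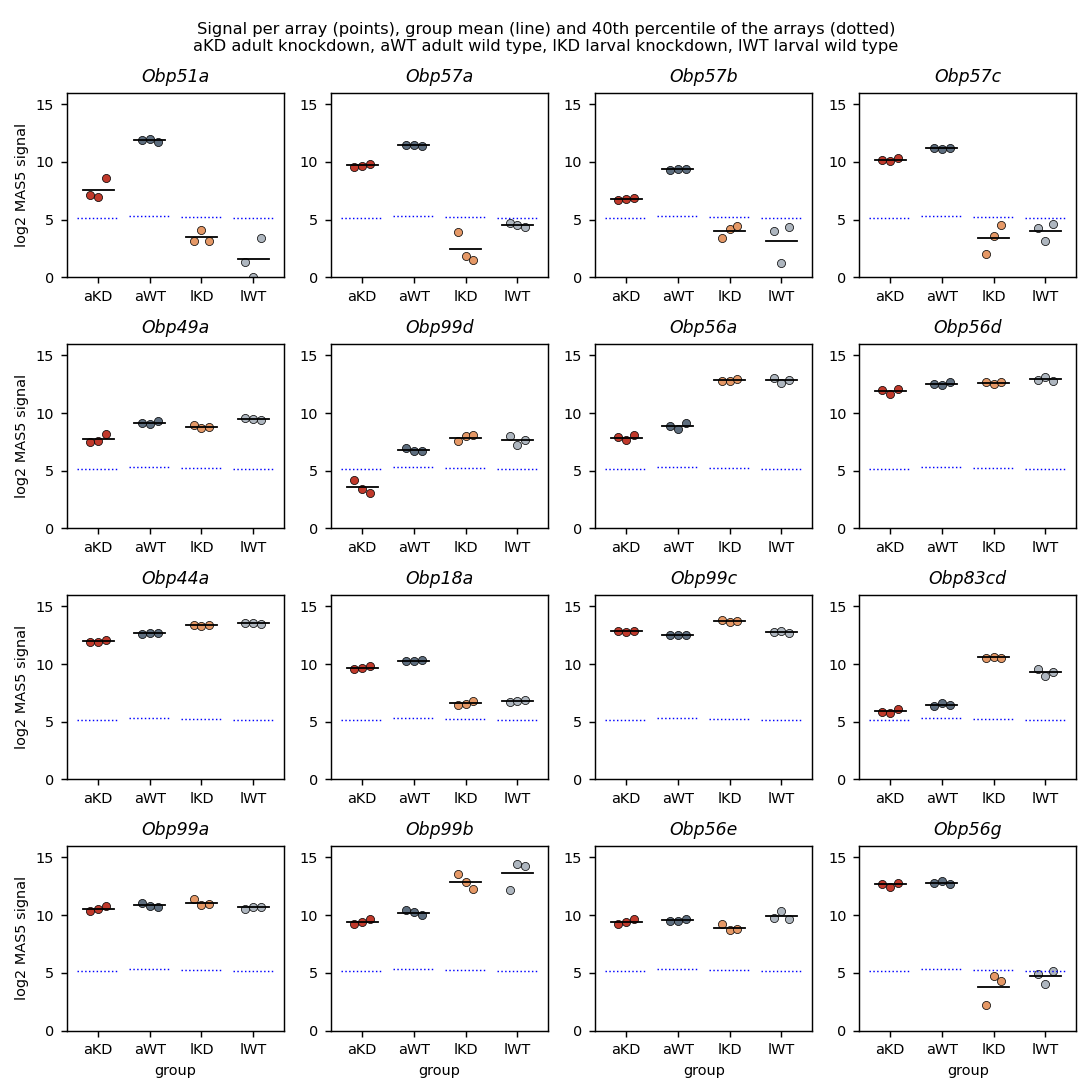
Log2 MAS5 signal on each array (points) with the group mean (line) and the 40th percentile of the arrays (dotted) for 16 genes, in adult knockdown (aKD), adult wild type (aWT), larval knockdown (lKD) and larval wild type (lWT). Obp99d lies under the dotted line only in knockdown adults, and 1 wild-type larval array of Obp99b stands well below the other 2.

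In knockdown larvae 3 of the 38 tested members rose and 3 fell, relative to wild-type larvae. The 6 calls were 15.8% of the members, beside 25.6% of all tested probe sets, and were 7.89% in each direction, beside 15.0% of all tested probe sets called higher and 10.7% called lower. These shares include members that were below background in larvae. Of the 21 members at or above the background level on all 3 arrays of a larval group, 3 rose and 2 fell. Among all probe sets chosen in that way, 16.8% rose and 12.4% fell. The median log2 change of the 38 tested members was -0.06, against 0.04 over all tested probe sets. The larval groups did not overlap for 4 members that were higher and 8 that were lower, beside 19.8% and 15.5% of all tested probe sets. None of the 9 larva-only genes was called.

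Obp99c rose in larvae as well. It read 14430.0, 12665 and 13573 in knockdown larvae, against 7137, 7360.1 and 6799 in wild-type larvae, a 1.91-fold rise (log2 change 0.93, SE 0.05, adjusted p = 1.40e-07). Obp83cd read 1519, 1603 and 1462 in knockdown larvae, against 778, 502 and 626 in wild-type larvae, a 2.44-fold rise (log2 change 1.29, SE 0.15, adjusted p = 6.88e-05). For both genes all knockdown readings were above all wild-type readings. Obp99a, with 2678, 1891 and 1951 in knockdown larvae and 1510.2, 1643 and 1715 in wild-type larvae, was also called higher (log2 change 0.41, SE 0.14, adjusted p = 0.0469). That call was lost in 14 of the 21 alternative analyses, with adjusted p from 0.0322 to 0.187, and without larval knockdown replicate 1 the change was 0.25.

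Obp49a fell in larvae too. It read 497, 421 and 451 in knockdown larvae, against 761, 725 and 692 in wild-type larvae (log2 change -0.67, SE 0.15, adjusted p = 0.00687; adjusted p = 0.0544 with array weights). Obp56e had 584, 428 and 455 in knockdown larvae, against 858, 1296 and 816 in wild-type larvae, and fell by 0.998 on the log2 scale (SE 0.17, adjusted p = 0.00124). The second wild-type array was the highest of its group, and all wild-type readings lay above those of the knockdown. Obp57a was called lower in larvae (adjusted p = 0.00465), with 14.9, 3.70 and 2.79 in knockdown larvae and 26.6, 23.3 and 20.3 in wild-type larvae. All 6 readings were below the 40th percentile, so no fold is given, and with the 6 larval arrays alone the call was lost (adjusted p = 0.103).

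Other members bright in larvae were not called there. Obp83g had 7729, 7691 and 7776 in knockdown larvae, against 9152, 8874 and 8964 in wild-type larvae. These groups did not overlap, yet the shared error, which takes in the dim adult arrays, left no call (log2 change -0.22, SE 0.99), whereas the 6 larval arrays alone gave an adjusted p of 0.0164 (limma, 17.4% of all probe sets called in that fit). Obp56d read 6561, 5867 and 6699 in knockdown larvae, against 7392, 8699.7 and 7177 in wild-type larvae, without overlap and without a call (log2 change -0.28, SE 0.10, adjusted p = 0.0643). It was called with arrays centred on their medians (log2 change -0.37, adjusted p = 0.00528) and without adult knockdown replicate 2 (0.0298). Obp56a had 7165, 6861 and 7823 in knockdown larvae and 8352, 6242 and 7442 in wild-type larvae, with overlapping groups (log2 change -0.004, SE 0.14, adjusted p = 0.987). Obp44a read 10775, 10002 and 10720.0 in knockdown larvae, against 11767, 12204 and 11228 in wild-type larvae, lower on every knockdown array but not called (adjusted p = 0.0567). Centred on array medians it was called (log2 change -0.25, adjusted p = 0.00545), as it also was under the stricter filter (0.0488) and without adult knockdown replicate 3 (0.0321) or larval wild-type replicate 3 (0.0483).

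Obp99b varied widely between larval arrays. It read 11880.2, 7603 and 4864 in knockdown larvae, against 4575, 22100.5 and 19788 in wild-type larvae, and was not called (log2 change -0.73, SE 0.49, adjusted p = 0.312). The first wild-type array was the lowest of all 6. Lsp2, a serum protein of the larval fat body, had 225, 127 and 77.6 in knockdown larvae, against 881, 17318 and 16597 in wild-type larvae, and Fbp2, also of fat body, 43.5, 29.9 and 16.5 in knockdown larvae, against 319, 8382 and 10719.6 in wild type. Of 6 measured fat body markers 5 were tested, and these were the 2 called lower in larvae, with none called higher. Of all tested probe sets 10.7% were called lower in larvae and 15.0% higher. The 6 summed to 26229 to 26779 in knockdown larvae, against 26976 to 51474 in wild-type larvae, so the other markers kept a large signal on every array. Lsp2 and Fbp2 were likewise lowest on the first array of the wild-type group. Without that array the change of Obp99b was -1.46 (limma adjusted p = 0.0035), and the part of fat body state in it was not tested. In adults Lsp2 was higher with the knockdown, at 1598, 1503 and 1402, against 225, 142 and 331 in wild type. That change was called (log2 change 2.77, SE 0.89, limma adjusted p = 0.0343), beside 13.6% of all tested probe sets. No other of the 5 tested fat body markers was called in adults.

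The difference between the adult and the larval effect was called for 10 of the 38 members, 9 with the lower value in adults and 1, Obp56e, with the higher. Of all tested probe sets 20.8% were called, 12.9% lower and 7.87% higher in adults. Obp83cd was the one member called in opposite directions, with adult minus larval -1.83 on the log2 scale (SE 0.21, adjusted p = 0.000221). Its adult fall did not hold under the settings given above. Obp99d fell in adults and had 192, 251 and 267 in knockdown larvae, against 258, 151 and 200.3 in wild-type larvae. The difference of the effects was called (adjusted p = 0.00021), but its size was not measured, since the adult knockdown signal was below the 40th percentile. For Obp99c, which rose at both stages, the adult rise was the smaller (difference -0.59, adjusted p = 0.000263).

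Neighbouring genes were also set side by side. The RefSeq gene order gave 6 runs of neighbours with at least 3 tested members, joining genes with at most 3 other protein-coding genes between them. Within the run from Obp56a to Obp56i, 3 of the 9 genes were adult-only, 2 larva-only, 3 of both stages and 1 of neither. Only Obp56a and Obp56d of that run fell in adults, and only Obp56e fell in larvae. Of all tested probe sets 15.4% fell in adults and 10.7% in larvae. In the run of Obp19a to Obp19d all 3 tested members lay below wild type on every knockdown adult array, as did all 3 from Obp57a to Obp57c, beside 31.4% of all tested probe sets. Of these 6 genes, Obp57a and Obp57b were called. Obp19a, the member of its run that did not pass the filter, lay the other way. It read 52.3, 28.7 and 66.1 in knockdown adults, against 23.9, 24.4 and 26.7 in wild-type adults. All wild-type readings and the knockdown reading of 28.7 were below background, and the groups overlapped for the other Obp19a probe set. In the run of Obp99b to Obp99d, Obp99c rose and Obp99d fell in adults and 1 protein-coding gene lies between them.

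**Figure D4:**
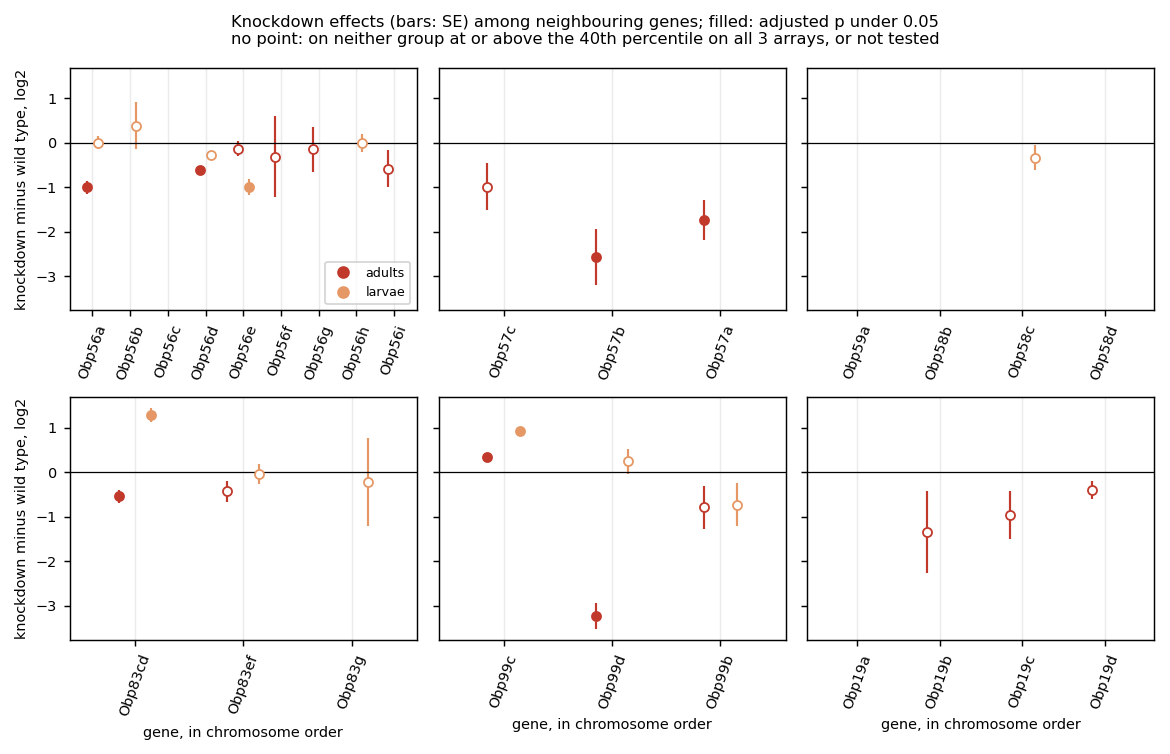
Log2 knockdown effects with SE bars (n = 3 arrays per group) in adults and larvae for 6 runs of neighbouring genes, in chromosome order; filled points have an adjusted p under 0.05. The 3 Obp57 genes and the 3 drawn Obp19 genes lie below 0 in adults, whereas Obp99c and Obp99d lie on opposite sides.

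Other chemosensory genes, from lists drawn up for this comparison, were mostly not above background. Of 57 odorant receptor genes 2 were tested, of 56 gustatory receptor genes 3 and of 53 ionotropic receptor genes 6. Of these 11, 1 was called in adults, beside 29.0% of all tested probe sets. In larvae 1 rose and 1 fell, beside 15.0% and 10.7%. The ionotropic receptor gene Ir76a rose at both stages, with 288, 247 and 226 in knockdown adults, against 14.2, 3.86 and 28.7 in wild-type adults (at least 6.28-fold, adjusted p = 9.05e-05), and 139.7, 104 and 105 in knockdown larvae, against 23.1, 17.3 and 18.9 in wild-type larvae (at least 3.22-fold, adjusted p = 0.00441). Snmp1, the sensory neuron membrane protein that works with pheromone receptors, fell in adults (log2 change -0.94, SE 0.28, adjusted p = 0.0233) and in larvae (log2 change -1.05, SE 0.28, adjusted p = 0.0145). It was the only one of 10 measured antenna markers to pass the filter. Of the 7 tested genes of the CheA and CheB families, secreted proteins of taste bristles, 2 fell in adults and 1 in larvae, and none rose. Of all tested probe sets 15.4% fell in adults and 10.7% in larvae. Their median adult change was -1.68. CheA87a read 52.4, 65.3 and 162 in knockdown adults, against 208, 222 and 267 in wild-type adults (log2 change -1.49, SE 0.44, adjusted p = 0.0246). EbpIII, a chemosensory protein of the ejaculatory bulb and other tissues, fell in adults (log2 change -0.43) and rose in larvae (0.45). Centring arrays on their medians raises that adult change by 0.28, which is most of its size, and lowers the larval one by 0.09.

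The other members add no calls. The 9 genes that did not pass the filter, Obp19a, Obp46a, Obp47b, Obp50a, Obp57e, Obp59a, Obp73a, Obp84a and Obp85a, had signals of 1.00 to 66.1 on all arrays. The second probe sets of Obp19a, Obp19c and Obp59a did not pass either. That of Obp19c read 10.5 to 31.2 in wild-type adults. Obp50b, Obp50c and Obp57d are covered here only by probe sets shared with another gene and were not counted.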

How the data were processed

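For each array the authors deposited log2 values, 1 for every probe set. The submitters' processing notes name MAS5, with no version. The log2 scale was inferred from the values: on the linear scale every array has a trimmed mean of 500.01 or 500.02 with 2% cut from each end. Every column was tied to a sample by its accession. Of 18952 probe sets, 183 controls were left out. Gene symbols came from the platform annotation, and all 50 Obp probe sets kept their symbol in RefSeq (assembly Release 6 plus ISO1 MT), from which the gene order was also taken. No genome or protein sequence was used here.

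Probe sets at or above the 40th percentile of their array on at least 3 of 12 arrays were fitted with limma 3.58.1 in R 4.3.3 (4 group means, variance trend, 8 residual degrees of freedom), with Benjamini-Hochberg adjustment over all 12827. A fold is given as "at least" where all arrays of the lower group lay below that percentile, against which it was then taken. Named in full are members called in a knockdown contrast or in their difference, and the 5 with the highest mean in each wild-type stage, a ranking over probe sets used only to choose names; Obp57c, Obp19b to Obp19d, Obp22a, Obp28a, Obp69a and Obp83b and, outside the family, Acp53C14c, CheA87a and Ir76a were added after their values were seen. The members and lists were chosen with earlier results of these data known. On simulated arrays for the adult contrast over 12827 probe sets, 64 of 100 changes of 1 and 86 of 100 changes of 2 (log2) were recovered, with 7 false calls. The other simulated probe sets had the same mean in both genotypes, whereas 29.0% were called in the data. The adjustment for multiple tests is therefore not alike, and these shares are not the recovery in the adult contrast itself. The number of arrays, 3 per group, limits the precision. Same-numbered arrays of the genotypes were not treated as pairs, since the labels state no pairing. Their residuals correlated at -0.09 to 0.02, which does not settle how the arrays were made. Alternatives changed the normalization, filter, pseudocount, error model or arrays used.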

Additional observations from a re-analysis of the deposited data

Results flagged for a closer look

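The effect of the knockdown differed between adults and larvae, by the test of the difference itself (limma adjusted p under 0.05 over 12827 probe sets), for 10 members, given as adult minus larval change on the log2 scale. For Obp51a the difference was -6.20 and for Obp57b -3.40, but both genes were below the 40th percentile on all 6 larval arrays, so their larval effect was not measured. Obp99d had a fitted difference of -3.48, and of -2.40 with a pseudocount of 16. Its adult knockdown signal was below the 40th percentile on all 3 arrays, so neither is a measured size. Obp83cd differed by -1.83 and Obp56a by -1.001. Obp49a, which fell at both stages, differed by -0.71, and that call was lost under 12 of 20 alternatives. Obp99a differed by -0.69, a call lost under 6 of 20 alternatives (-0.33, adjusted p = 0.199, with arrays centred on their medians). Obp99c differed by -0.59, and by -0.22 (adjusted p = 0.024) with that centring. Obp44a differed by -0.52, and by -0.15 (adjusted p = 0.139) when arrays were centred on their medians. Obp56e, lower in knockdown larvae, differed by 0.87, a call lost under 8 of 20 alternatives, with adjusted p of up to 0.0605.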

How the results depend on the processing

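The number of members called was 11 in the adult, 6 in the larval, 10 in the difference and 31 in the wild-type stage comparison. Leaving out 1 array at a time gave 10 to 12, 5 to 7, 7 to 11 and 29 to 33. Over all alternatives the ranges were wider, at 10 to 17, 4 to 7, 7 to 13 and 23 to 36. Array weights gave 17 adult calls, 16 of them lower. The 6 adult arrays alone gave 16, beside 48.3% of all tested probe sets, and the 6 larval arrays alone 5, beside 17.4%. With the replicate number as a block within stage the counts were 11, 5, 8 and 32, though the labels do not state that the numbers pair arrays. In that fit the call of Obp99a in larvae (adjusted p = 0.111) and the differences of Obp99a (0.0737) and Obp56e (0.0510) were lost. With the 50th percentile as floor, 20 genes in place of 12 fell in the class of neither stage. Over 1328 comparisons of a named member with an alternative, 51 calls were lost and 31 gained. The sign turned in 4 where at least 1 of the values was called and in 17 where neither was, such as the adult change of Obp56g. The 4 were as follows. With quantile normalization the wild-type stage difference, adult minus larval, of Obp56d was 0.36 in place of -0.38 and that of Obp99c 0.43 in place of -0.29. Median centring turned that of Obp99a to -0.53. The stage direction of these 3 genes, Obp56d, Obp99c and Obp99a, thus depends on scaling, which moves the median over all probe sets by -0.42 and -0.71 in that comparison. A pseudocount of 16 turned the difference of effects of Obp57a, which is dim in larvae, to -0.91. The causes were not tested. Signals near the 40th percentile carry no reliable size.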

Other observations

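Probe sets annotated to more than 1 gene were not members. The probe set shared by Obp57d and the cuticle protein gene Cpr57A with the stronger signal read 205, 178 and 197 in knockdown adults, against 66.0, 72.9 and 113 in wild-type adults (log2 change 1.24, limma adjusted p = 0.000134). In larvae it read 2823, 2736 and 2967 with the knockdown, against 2379, 2861 and 2556 in wild type. The other probe set of this pair was called higher in knockdown larvae (log2 change 1.54, adjusted p = 0.0278). Which of the genes gave these signals cannot be told apart.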
